A study of Mus musculus with 24 samples.

Results

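The 9 genes described here set the kidney's handling of vitamin D and phosphate. They are Cyp27b1, Cyp24a1, Vdr, Kl, Pth1r, Slc34a1, Slc34a3, Slc20a1 and Slc20a2, out of 18766 genes with a named probe. They were chosen by their measured signals on these arrays: the signals and detection p-values of their probes on all 24 arrays, the mutant against the wild-type transgenic line within each sex and age, and females of 2 months against females of 1 month. Values in those comparisons are therefore given as a description. The 9 genes had 16 probes, of which 10 were detected on all 24 arrays, 3 on some and 3 on none.

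Whole kidneys of FVB mice were profiled with Illumina's MouseWG-6 v2.0 platform, each mouse on an array of its own and 4 mice to a group. TgUmodC147W mice carry a Umod transgene with the Cys147Trp change of uromodulin, a model of autosomal dominant tubulointerstitial kidney disease. TgUmodwt mice carry the same construct without the change and served as controls, so that both lines carry an HA-tagged transgene under a fragment of the Umod promoter, which drives expression in the TAL (thick ascending limb of the nephron), on top of their own Umod gene. The groups were TgUmodC147W and TgUmodwt males of 1 month (M1), females of 2 months (F2) and females of 1 month (F1), with no other treatment given in the labels.

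Active vitamin D is made in the proximal tubule, where the enzyme encoded by Cyp27b1 adds the last hydroxyl group, and it is broken down by the enzyme encoded by Cyp24a1. Parathyroid hormone, through the receptor Pth1r, raises Cyp27b1 and withdraws the sodium-phosphate cotransporters NaPi-IIa (Slc34a1) and NaPi-IIc (Slc34a3) from the brush border. The bone hormone FGF23, which needs Klotho (Kl) beside its receptor, lowers Cyp27b1, raises Cyp24a1 and also withdraws the cotransporters. Vdr encodes the nuclear receptor that active vitamin D binds, and Cyp24a1 is among its classical targets.

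Sequences of the promoters are shown for 3 of the genes that differed between the lines at 1 month: the activating enzyme, the receptor of its product and a cotransporter. The set of RefSeq starts used here (GRCm38.p6) held 10 starts for 7 of the 9 genes. It had no entry for Cyp24a1 and Slc20a2, so their promoters were not searched. The lines below hold the 250 bases before the start, 5′ to 3′ on the gene's strand, with capitals for AGGTCA (a half-site of nuclear receptors), TGACG (a half-site of cAMP response elements), CCAAT (a site of the factor NF-Y), TATAAA (the TATA box) and GGGCGG (a GC box), each searched on both strands.
Cyp27b1 (chr10:127047996-127048245, + strand): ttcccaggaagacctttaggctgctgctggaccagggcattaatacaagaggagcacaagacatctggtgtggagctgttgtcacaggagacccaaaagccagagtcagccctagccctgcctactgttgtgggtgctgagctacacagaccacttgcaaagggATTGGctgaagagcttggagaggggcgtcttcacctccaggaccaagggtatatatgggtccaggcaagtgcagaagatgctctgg
Vdr (chr15:97908297-97908546, - strand): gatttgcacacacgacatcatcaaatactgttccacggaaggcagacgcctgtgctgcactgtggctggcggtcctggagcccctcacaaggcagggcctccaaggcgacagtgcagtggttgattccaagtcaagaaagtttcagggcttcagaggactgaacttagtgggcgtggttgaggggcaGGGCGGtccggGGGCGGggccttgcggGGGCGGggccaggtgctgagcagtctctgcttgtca
Slc34a3 (chr2:25234235-25234484, - strand): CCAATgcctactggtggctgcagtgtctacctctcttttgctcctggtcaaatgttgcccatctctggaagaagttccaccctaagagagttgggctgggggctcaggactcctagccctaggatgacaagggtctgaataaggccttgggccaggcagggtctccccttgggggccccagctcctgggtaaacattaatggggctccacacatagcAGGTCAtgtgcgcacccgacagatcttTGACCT
The Slc34a3 window held AGGTCA 2 times, at -33 to -28 and, on the other strand, at -6 to -1 (counted from the start), and the Cyp27b1 and Vdr windows held none. Of all 32851 promoter windows of this length, 14.0% held AGGTCA. The Vdr window held 3 GC boxes, a motif of 32.7% of all windows, and the Cyp27b1 window held 1 CCAAT, as did 33.8%. TATAAA (12.4% of all windows) was in none of the windows of the 7 genes, and TGACG (17.8%) was in none of the 3 printed. The DR3 element of the vitamin D receptor was searched as a pair of half-sites with NNN between them, each half-site being AGGTCA or its relatives GGTTCA and also AGTTCA and also GGGTCA. It was in none of the windows of the 7 genes and in 0.0396% of all windows. These are matches of letters only.

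Between 35.3% and 39.6% of probes were detected on each array. All values below are levels on the log2 scale after background correction and quantile normalization, where a difference of 1 is 2-fold. Overlap of groups was looked at for the 9 genes and summed marker levels only. The share of all genes without overlap was not counted, so a lack of overlap is a description and no test. A probe was called detected at a detection p under 0.01, and each gene was read from its brightest detected probe. The lowest level of a detected probe was between 6.23 and 6.73, depending on the array. The labelled tissue was borne out by its markers: all 16 proximal tubule markers with a named probe were detected. 1 array stood apart. The TgUmodC147W F1 replicate 2 had levels of 4.80 to 5.18 in its 4 probes for Xist, the RNA that silences an X chromosome. Males (8 arrays) had 4.70 to 5.78 and the remaining 15 females 8.99 to 12.73. Its Kdm5d probe, from the Y chromosome, was at 4.85, within the 4.78 to 5.14 of the other females and below the 6.44 to 7.49 of the males. Many F1 values are therefore also given without it. Where this is not said, as for Kl, Slc34a1, summed marker levels and list medians, the array is included.

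Cyp27b1 was near the detection limit, on 9 of 24 arrays above it. At 1 month it was detected in 3 of 4 TgUmodC147W males and 1 of 4 TgUmodwt males, and in 4 of 4 TgUmodC147W females and 0 of 4 TgUmodwt females. At 2 months it was detected in 0 of 4 TgUmodC147W and 1 of 4 TgUmodwt females. The mutant line thus had more arrays with a detected signal at 1 month and none at 2 months.

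In M1 the Cyp27b1 levels were 6.66, 6.04, 8.76 and 7.83 in TgUmodC147W mice, against 6.56, 6.91, 6.68 and 6.22 in TgUmodwt mice. 2 mutant arrays, replicates 3 and 4, stood above all others and the groups overlapped (difference 0.73 ± 0.47, SE, n = 4 each). In F2 the levels were 5.45, 5.57, 5.39 and 5.30 in TgUmodC147W mice, against 6.94, 5.98, 5.95 and 5.69 in TgUmodwt mice. All mutant arrays lay below all wild-type ones (-0.71 ± 0.22), but every mutant value was under the detection limit, as were 3 of the wild-type values, so that no fold is given. In F1 the levels were 8.22, 6.56, 6.80 and 7.41 in TgUmodC147W mice, against 5.69, 6.42, 6.00 and 6.00 in TgUmodwt mice. Here all mutant arrays lay above all wild-type ones, with a measured difference of 1.22 ± 0.31. Since no wild-type F1 array detected the gene, the mutant level was at least 1.59-fold higher. This bound sets the mutant mean against, per array, the higher of the lowest detected signal and the probe's own. Without the array lacking Xist the difference was 1.45 ± 0.29.

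Within the mutant line Cyp27b1 was lower by 1.82 ± 0.29 in F2 than in F1, at least 1.67-fold by the same bound, and the difference was -2.05 ± 0.27 without the array lacking Xist. TgUmodwt females of 2 months and 1 month averaged 6.14 ± 0.55 and 6.03 ± 0.30 (SD), and it was not detected on 7 of these 8 arrays. The macrophage, a cell type that also makes this enzyme, was followed by 11 markers with a named probe. Of the 10 tested in each genotype comparison, 8 rose in M1, 9 in F2 and 8 in F1 (7 without the array lacking Xist). Of all genes 22.0% rose in M1 and 10.4% in F1. In either direction 8.48% passed in F2, and 11.9% in F1 without the array lacking Xist. The summed level (log2) of these 10 markers was 12.13 to 12.83 in TgUmodC147W M1 against 11.31 to 11.82 in TgUmodwt M1. It was 13.03 to 13.20 against 11.53 to 11.79 in F2, and 12.46 to 13.38 against 11.51 to 11.77 in F1, in the same order of lines. Itgam was not detected on any array. The part of these cells in the Cyp27b1 levels was not tested.

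Cyp24a1, detected on all 24 arrays, was lower in the mutants in M1 and higher in F2. In M1 it was 9.03, 9.62, 8.85 and 10.12 in TgUmodC147W mice, against 10.78, 10.36, 11.10 and 11.01 in TgUmodwt mice. The groups did not overlap and the mutants were 2.65-fold lower (-1.41 ± 0.26). In F2 it was 9.79, 12.21, 9.38 and 10.77 in TgUmodC147W mice, against 8.33, 8.25, 9.01 and 9.24 in TgUmodwt mice. These groups did not overlap either, with the mutants 3.55-fold higher (1.83 ± 0.50). The F2 difference did not pass in the limma fit across all genes given below (adjusted p = 0.0516). Replicate 2 was the highest of all 24 arrays, and without it the difference was 1.27.

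In F1 Cyp24a1 was 10.49, 8.94, 10.57 and 10.69 in TgUmodC147W mice, against 9.71, 11.42, 8.90 and 9.39 in TgUmodwt mice. The groups overlapped (0.32 ± 0.52). 1 array on each side lay far from its group: without mutant replicate 2, the array lacking Xist, the difference was 0.73 ± 0.48, and without wild-type replicate 2 it was 0.84. Between ages, TgUmodwt females had a mean of 8.71 at 2 months and 9.85 at 1 month (-1.14 ± 0.45), and TgUmodC147W females 10.54 at 2 months and 10.17 at 1 month (0.37 ± 0.57, or -0.04 ± 0.54 without the array lacking Xist). Both ages overlapped in both lines. Over the 24 arrays the levels of Cyp27b1 and Cyp24a1 had a Pearson r of -0.03, and 0.08 for deviations from the group means, as a description of arrays that share their groups.

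**Figure D1:**
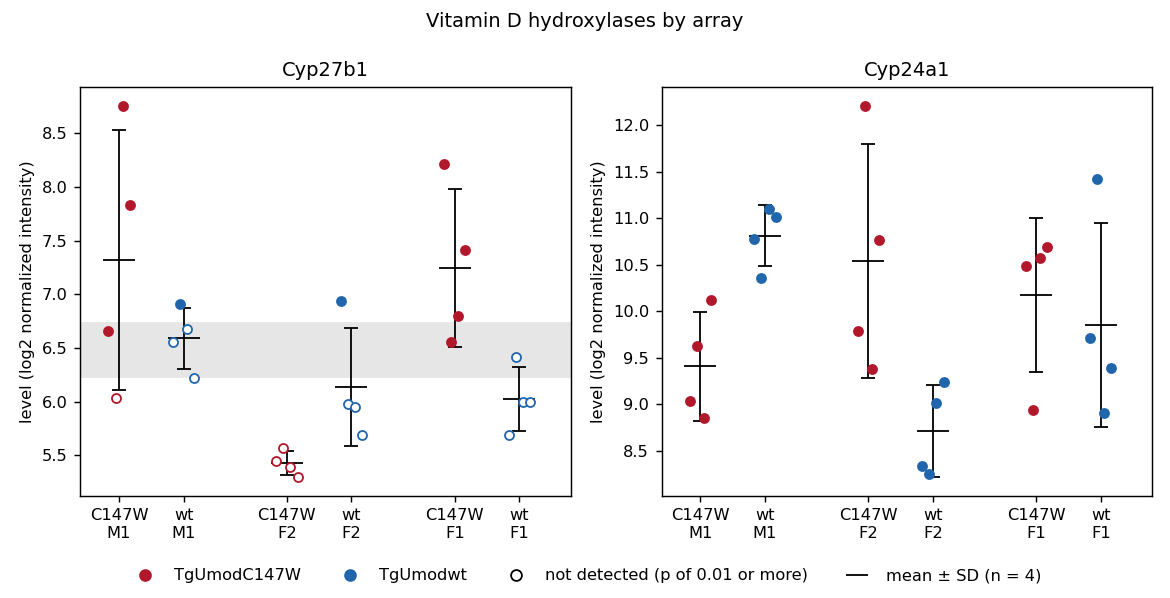
Levels of Cyp27b1 and Cyp24a1 (log2 normalized intensity, vertical axes) on each array by line and group (horizontal axes), with mean ± SD of 4 arrays. Open circles are arrays on which the probe was not detected and the grey band is the range of the lowest detected level per array, 6.23 to 6.73. TgUmodC147W F2 arrays sit at 5.30 to 5.57 for Cyp27b1, all open, and at 9.38 to 12.21 for Cyp24a1, above all TgUmodwt F2 arrays.

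Vdr was lower in the mutant line at 1 month and not at 2 months, by each of its 3 probes. In M1 its brightest probe had 12.15, 12.24, 11.99 and 12.06 in TgUmodC147W mice, against 12.42, 12.41, 12.39 and 12.47 in TgUmodwt mice (-0.31 ± 0.08, 1.24-fold lower). The second and the third probe gave -0.41 ± 0.11 each, and the groups did not overlap by any of the 3. In F2 the brightest probe had 12.08, 12.17, 12.04 and 12.35 in TgUmodC147W mice, against 12.17, 12.06, 12.17 and 12.25 in TgUmodwt mice. The difference was 0.00 ± 0.09 by this probe, and 0.08 ± 0.10 and 0.10 ± 0.12 by the others, with overlapping groups throughout. In F1 the brightest probe had 12.03, 11.89, 11.95 and 12.00 in TgUmodC147W mice, against 12.22, 12.35, 12.24 and 12.29 in TgUmodwt mice (-0.30 ± 0.08). The others gave -0.21 ± 0.08 and -0.42 ± 0.14, the third with overlap, and without the array lacking Xist the brightest gave -0.28 ± 0.09. Between F2 and F1 the brightest probe differed by 0.19 ± 0.09 in TgUmodC147W mice, with no overlap, and by -0.11 ± 0.08 in TgUmodwt mice, with overlap.

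Klotho levels lay close together. Its detected probe averaged 13.54 ± 0.12 in TgUmodC147W M1 and 13.48 ± 0.06 in TgUmodwt M1, 13.40 ± 0.05 in TgUmodC147W F2 and 13.33 ± 0.22 in TgUmodwt F2, and 13.42 ± 0.23 in TgUmodC147W F1 and 13.33 ± 0.08 in TgUmodwt F1 (SD, n = 4). All groups overlapped within each comparison, and the genotype differences were 0.06 ± 0.08, 0.07 ± 0.11 and 0.09 ± 0.12 in the same order. Its other probe was not detected on any array. The soluble hormone cannot be read from this mRNA level.

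Pth1r, the receptor for parathyroid hormone, was lower in mutants in M1 by its 2 brightest probes. In F1 the means of these probes were lower too, with overlap by the brightest. In M1 the brightest had 11.66, 11.83, 12.03 and 11.69 in TgUmodC147W mice, against 12.21, 12.34, 12.34 and 12.26 in TgUmodwt mice. The groups did not overlap (-0.49 ± 0.10, 1.40-fold lower). The second probe gave -0.45 ± 0.10, also with no overlap, and the third -0.08 ± 0.15, with overlap. Probes of the same gene thus differed in M1. In F2 the brightest had 11.90, 12.22, 12.03 and 12.47 in TgUmodC147W mice, against 12.13, 12.01, 12.19 and 12.36 in TgUmodwt mice (-0.02 ± 0.13), and the others gave -0.21 ± 0.11 and -0.31 ± 0.15. In F1 it had 11.96, 11.39, 11.24 and 12.21 in TgUmodC147W mice, against 12.09, 12.08, 11.96 and 12.16 in TgUmodwt mice (-0.37 ± 0.19). Mutant replicates 2 and 3 were far below the rest and replicate 4 was above every wild-type array. By the second probe the F1 groups did not overlap (-0.42 ± 0.14), and by the third they did (-0.28 ± 0.21). Without the array lacking Xist the brightest gave -0.27 ± 0.20.

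**Figure D2:**
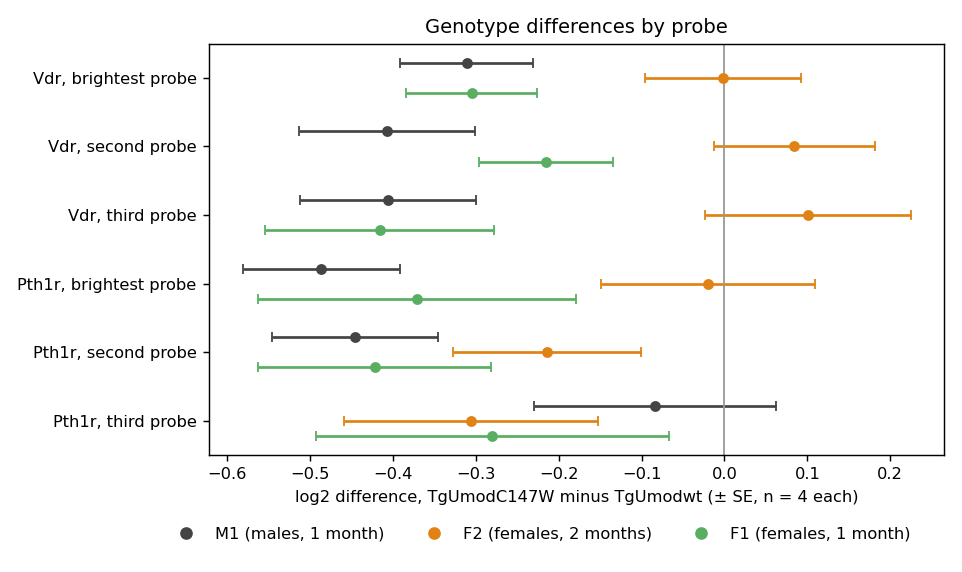
Log2 difference between TgUmodC147W and TgUmodwt mice (horizontal axis, ± SE, n = 4 each) for the 3 probes of Vdr and of Pth1r, by group. The Vdr probes lie at -0.31, -0.41 and -0.41 in M1 and within 0.00 to 0.10 in F2, and the third Pth1r probe, at -0.08 in M1, lies apart from the other two.

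Slc34a3, which encodes NaPi-IIc, was lower in the mutant line in all 3 comparisons, with no overlap in any. In M1 it was 11.49, 11.58, 11.39 and 11.19 in TgUmodC147W mice, against 11.74, 11.72, 11.68 and 11.81 in TgUmodwt mice (-0.33 ± 0.09, 1.25-fold lower). In F2 it was 11.29, 11.29, 11.46 and 11.45 in TgUmodC147W mice, against 11.60, 11.66, 11.66 and 11.56 in TgUmodwt mice (-0.25 ± 0.08, 1.19-fold lower). This F2 difference did not pass in the limma fit across all genes given below (adjusted p = 0.112). In F1 it was 11.51, 10.94, 11.10 and 11.55 in TgUmodC147W mice, against 12.02, 11.95, 11.83 and 11.92 in TgUmodwt mice. This was the widest of the 3 gaps (-0.66 ± 0.14, 1.57-fold lower), and -0.54 ± 0.13 without the array lacking Xist. Wild-type females of 2 months lay below those of 1 month with no overlap (-0.31 ± 0.08), while mutant females overlapped between ages (0.10 ± 0.14).

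**Figure D3:**
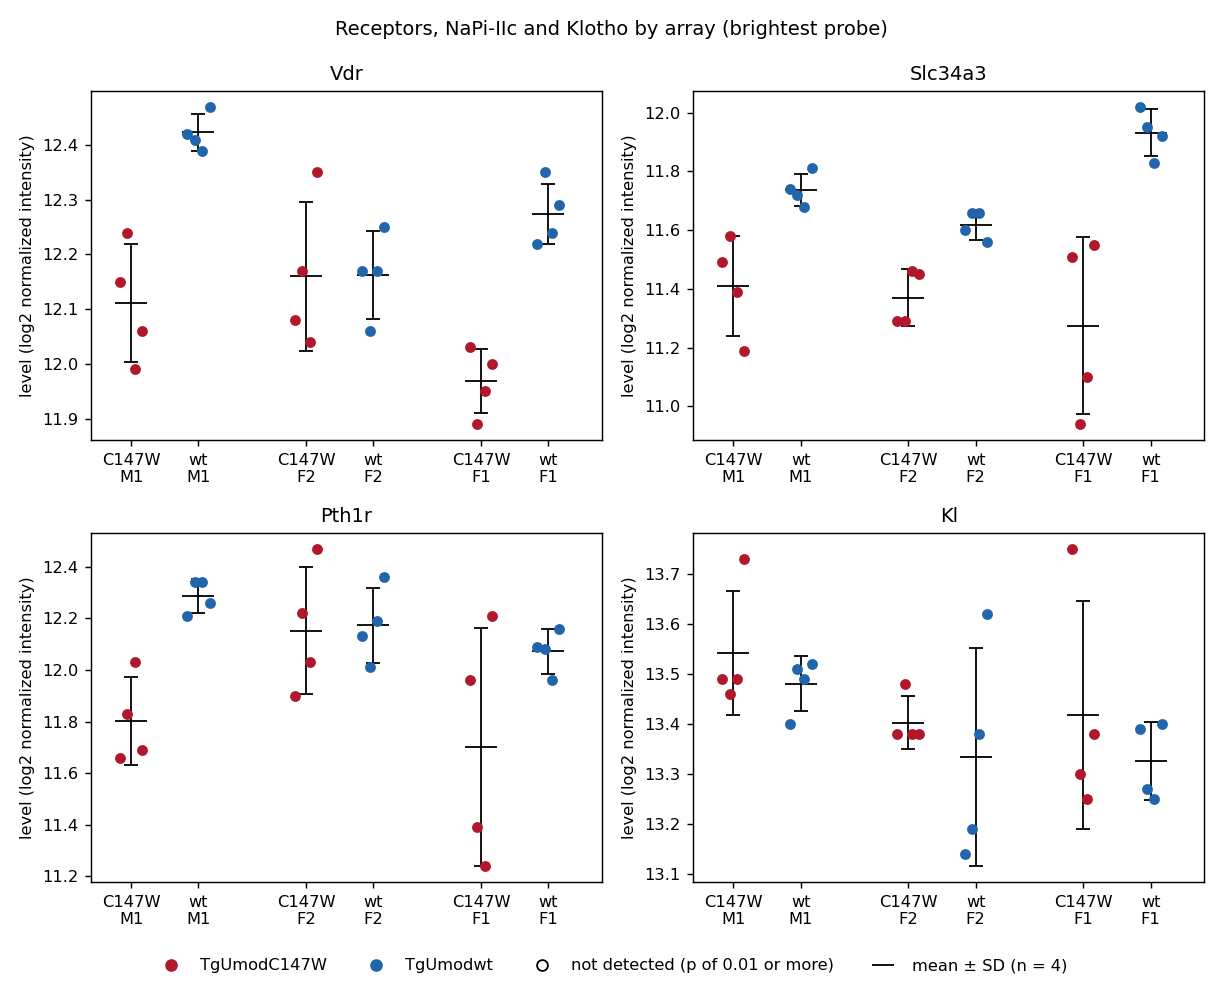
Levels of Vdr, Slc34a3, Pth1r and Kl by their brightest probe (log2 normalized intensity, vertical axes) on each array by line and group, with mean ± SD of 4 arrays. The TgUmodC147W arrays lie below all TgUmodwt arrays for Slc34a3 in each group and for Vdr in M1 and F1, while Kl overlaps in each group.

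The summed level of proximal tubule markers was lower in the mutant line in each group, with no overlap. Over 16 genes, none of them undetected, it was (log2) 17.69 to 17.78 in TgUmodC147W M1 against 17.93 to 18.05 in TgUmodwt M1. It was 17.86 to 17.94 against 17.98 to 18.03 in F2, and 17.54 to 17.75 against 17.80 to 17.99 in F1, the mutant line first in each. Of the 16, 7 fell and 1 rose in M1, 3 fell in F2 and 7 fell in F1. Without the array lacking Xist 3 fell in F1. The remaining 8 in M1 did not pass. Of all genes 15.4% fell and 22.0% rose in M1, 8.48% passed in either direction in F2 and 7.63% fell in F1. The median difference of the 16 was -0.256 in M1, -0.335 in F2 and -0.4 in F1, beside 0.039, -0.01 and 0.008 for all genes. In F2, where the sum was lower too, the brightest probes of Vdr and Pth1r differed by 0.00 and -0.02. The other Vdr probes gave 0.08 and 0.10 there, the other Pth1r probes -0.21 and -0.31, and Slc34a3 -0.25. Fewer cells of a type and less RNA per cell cannot be told apart in whole kidney, and the part of these markers in the lower Vdr, Pth1r and Slc34a3 was not tested.

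Slc34a1, the main phosphate cotransporter of the proximal tubule, lay at the top of the measuring range, between 15.91 and 16.01 on all arrays, where 16.02 was the highest level after normalization. Before normalization its probe gave 91.5% to 100% of the brightest signal of its array and ranked between 2 and 25 among 45281 probes. The genotype differences were -0.02 ± 0.07 in M1, 0.00 ± 0.08 in F2 and -0.03 ± 0.08 in F1, with overlapping groups. The files carry no flag for saturation, which was not tested, so that a change of this gene may have been compressed.

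Slc20a1 and Slc20a2, which encode the widespread transporters PiT-1 and PiT-2, lay at the bottom of the range. The best of 3 Slc20a1 probes was detected on 6 of 24 arrays (2 TgUmodC147W F2, 1 TgUmodwt F2, 2 TgUmodC147W F1 and 1 TgUmodwt F1), at 6.54 to 7.01, and the other two on none. The single Slc20a2 probe was detected on 1 array, a TgUmodC147W male. In M1 it was 6.01, 5.95, 6.25 and 6.26 in TgUmodC147W mice, against 5.99, 5.71, 5.48 and 5.46 in TgUmodwt mice. The groups overlapped (0.46 ± 0.13) and no fold is given, as the mean of both groups was below detection.

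**Figure D4:**
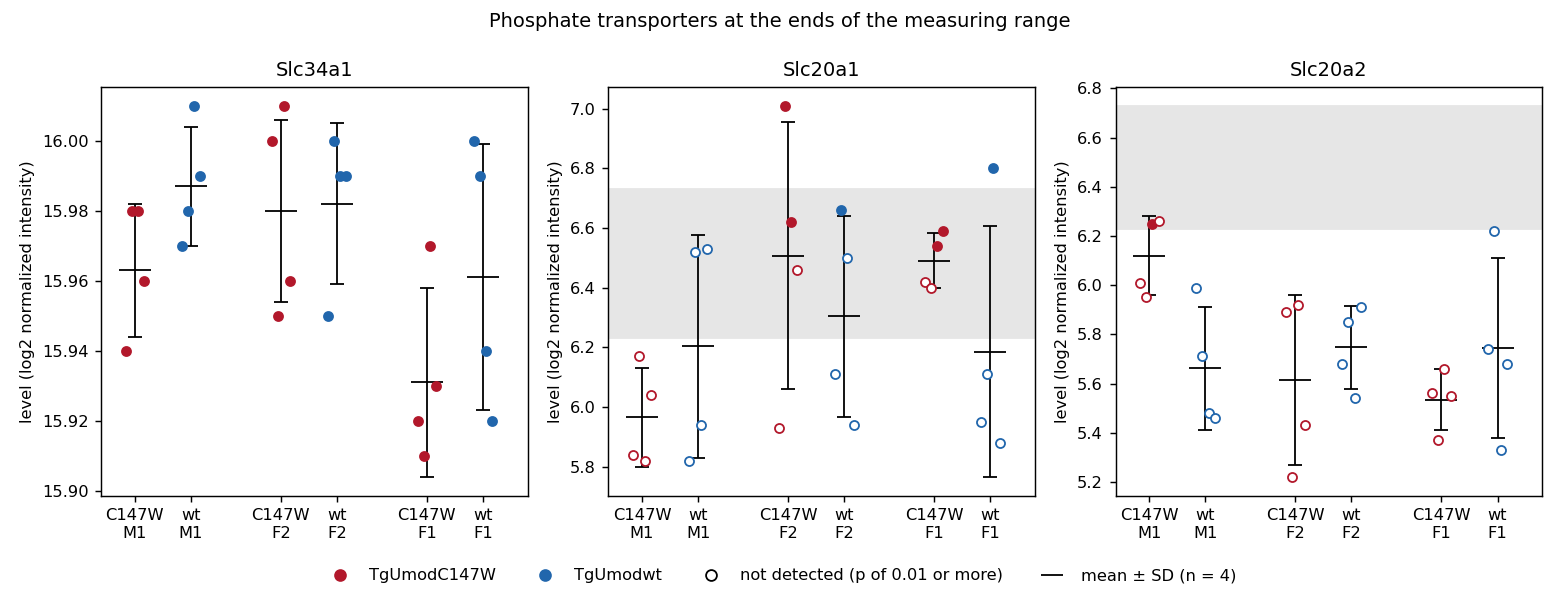
Levels of Slc34a1, Slc20a1 and Slc20a2 (log2 normalized intensity, vertical axes) on each array by line and group, with mean ± SD of 4 arrays. Open circles were not detected and the grey band is the range of the lowest detected level per array, so that Slc20a1 and Slc20a2 lie at the lower end and Slc34a1, at 15.91 to 16.01, at the upper end.

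In the limma fit across all genes, 5 of 8 members tested in M1 passed an adjusted p under 0.05, where 37.4% of all genes did. Of these, 4 were lower (Cyp24a1, Vdr, Slc34a3 and Pth1r), against 15.4% of all genes, and 1 was higher (Slc20a2, the gene detected on 1 array), against 22.0%. Slc20a1 was not tested there. In F1, 3 of 8 passed, where 18.0% of all genes did, 2 lower (Vdr and Slc34a3, against 7.63%) and 1 higher (Cyp27b1, against 10.4%). Without the array lacking Xist 2 passed, and Vdr did not. The M1 count was 3 without TgUmodwt M1 replicate 4, and the F1 count 1 without TgUmodwt F1 replicate 1 or 4. Nothing is read from these counts, since the same comparisons chose the genes.

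In F2, 0 of 8 passed in limma, where 8.48% of all genes did, and 3 (Cyp27b1, Cyp24a1 and Slc34a3) had an unadjusted p under 0.05. Between ages, 0 of 8 passed in TgUmodwt females, where 3.45% of all genes did, and 2 (Cyp24a1 and Slc34a3) had an unadjusted p under 0.05. In TgUmodC147W females 1 of 8 passed (Cyp27b1), against 13.1% of all genes. The genotype and age comparisons of females share arrays, so that their values are not independent of each other.

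**Figure D5:**
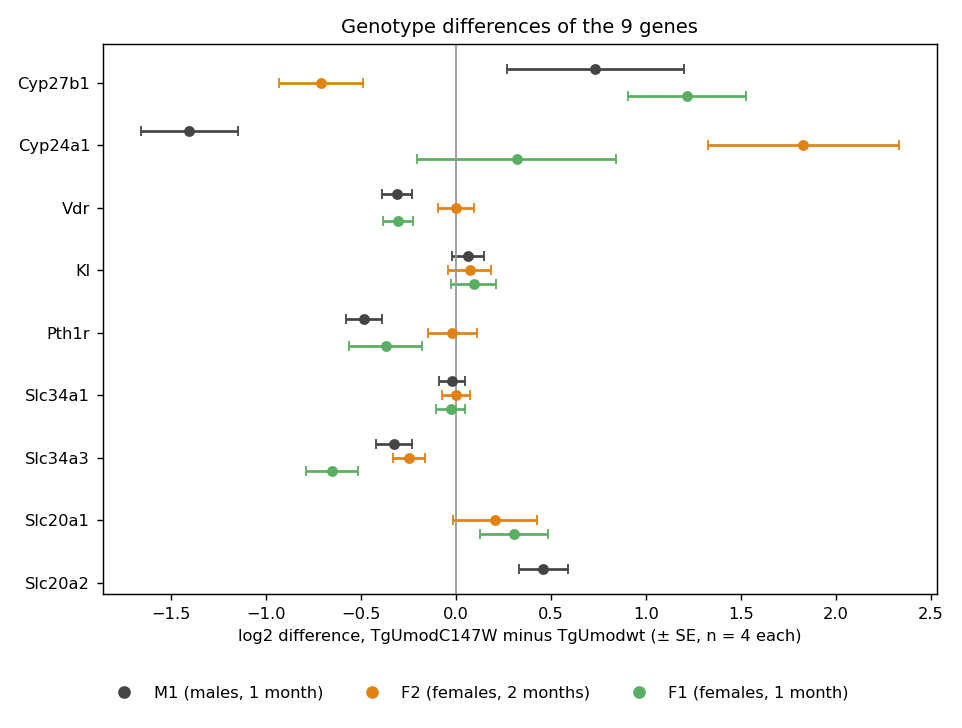
Log2 difference between TgUmodC147W and TgUmodwt mice (horizontal axis, ± SE, n = 4 each) for the 9 genes by group, where a probe was detected on at least 1 of the 8 arrays. Cyp27b1 and Cyp24a1 lie on opposite sides of 0 in M1 (0.73 and -1.41) and in F2 (-0.71 and 1.83) and both above 0 in F1 (1.22 and 0.32), and Kl and Slc34a1 lie near 0.

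The genotype differences were also set against each other between ages and between sexes, as interaction terms fitted over 16 arrays. For the 9 genes these are differences between the very comparisons that chose them, so they are given as a description with no test. The interaction with age is the difference in F2 minus that in F1. Cyp27b1 had -1.93 ± 0.42, from -0.71 in F2 and 1.22 in F1, with all F2 mutants, 3 of 4 F2 wild types and all F1 wild types under detection. It had -2.16 without the array lacking Xist. Vdr had 0.30 ± 0.11 by its brightest probe, and 0.30 and 0.52 by the others. Slc34a3 had 0.41 ± 0.16 and Cyp24a1 1.51 ± 0.82. In the limma fit 1 of 8 members, Cyp27b1, lay past the threshold, where 1.30% of all genes did, and it no longer did when any of 8 single arrays of the 16 was left out. Nothing is read from this count.

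The interaction with sex is the difference in M1 minus that in F1. Cyp24a1 had -1.73 ± 0.65, from -1.41 in M1 and 0.32 in F1. It had -2.14 ± 0.59 without the array lacking Xist and -2.25 without TgUmodwt F1 replicate 2. Slc20a2, near background, had 0.67 ± 0.22. Vdr had -0.01 ± 0.10, Kl -0.03 ± 0.14 and Slc34a3 0.33 ± 0.17. In limma 0 of 9 members lay past the threshold, where 7.69% of all genes did, and 2 (Cyp24a1 and Slc20a2) had an unadjusted p under 0.05. Cyp24a1 lay past it without either of the 2 arrays just named, and again nothing is read from the count.

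Wild-type males and females of 1 month were also compared, where 26.8% of all genes passed. The signals of these arrays were among the values that chose the genes. The members' values and adjusted p-values here are therefore a description, and nothing is read from them. Of 8 members 1 passed, Cyp27b1, with 6.59 ± 0.29 in TgUmodwt M1 and 6.03 ± 0.30 in TgUmodwt F1 (SD), a difference of 0.56 ± 0.17 (adjusted p = 0.0311). It was detected on 1 male and 0 female arrays, so that it entered this fit only through the group where it was higher. No fold is given, as the mean of both groups was below detection. The call was lost without any of 5 single arrays (adjusted p between 0.0614 and 0.0764), and the gene was not tested without TgUmodwt M1 replicate 2, the array that detected it. Pth1r was 0.21 ± 0.07 higher (adjusted p = 0.0557) and Slc34a3 0.19 lower (-0.19 ± 0.07, adjusted p = 0.0729) in males with no overlap, neither past the test. The second Vdr probe passed (0.29 ± 0.07, adjusted p = 0.0133) and the brightest did not (0.15 ± 0.07, adjusted p = 0.128).

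The partners of vitamin D activation were followed by a list of 12 genes, 8 with a named probe and 7 tested. Cyp27a1, a mitochondrial 25-hydroxylase of sterols and vitamin D, fell in the mutants at 1 month. It averaged 9.83 in TgUmodC147W M1 and 10.80 in TgUmodwt M1 (-0.97 ± 0.15), and 9.77 in TgUmodC147W F1 and 10.47 in TgUmodwt F1 (-0.70 ± 0.14). It was higher in F2 than in F1 in both lines, by 1.06 ± 0.13 in TgUmodC147W and 0.70 ± 0.14 in TgUmodwt mice. Dab2, an adaptor of megalin uptake, fell in F1 (-0.33 ± 0.10), and Rxra, the partner of Vdr on DNA, fell in F2 (-0.55 ± 0.12). Lrp2 (megalin), which takes up vitamin D with its binding protein, did not pass in any genotype comparison (-0.03 ± 0.09 in M1, -0.04 ± 0.10 in F2 and -0.21 ± 0.10 in F1). In all, 1 of 7 fell in M1, 1 in F2 and 2 in F1, and none rose, where 15.4% of all genes fell in M1, 8.48% passed in F2 and 7.63% fell in F1. Without the array lacking Xist only Cyp27a1 of these 7 still fell in F1. The list's median difference was -0.19, -0.18 and -0.32 in that order, beside 0.04, -0.01 and 0.01 for all genes.

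Partners of phosphate transport and of FGF23 and parathyroid hormone signalling were a list of 20 genes, 17 with a named probe and 13 or 14 tested. In M1 4 of 13 rose and 2 fell, in F2 1 of 14 rose and in F1 2 of 13 fell. Of all genes 22.0% rose and 15.4% fell in M1, 8.48% passed in F2 and 7.63% fell in F1. Fgfr4, a receptor for FGF23 in the presence of Klotho, fell in M1 (-0.39 ± 0.11) and F1 (-0.62 ± 0.15), with group means of 6.14 to 7.02 near the detection limit. Galnt3, which glycosylates FGF23 in bone, fell in M1 (-0.50 ± 0.12) and F1 (-0.40 ± 0.11). Its interaction with age passed narrowly in limma (0.57 ± 0.14, adjusted p = 0.048), in a fit that included the array lacking Xist. Sgk1, a kinase of ion transport, rose in M1 (0.85 ± 0.14), as did Slc9a3r2, which encodes the scaffold NHERF2 (0.53 ± 0.07). Ank, a transporter of pyrophosphate, rose in M1 (0.33 ± 0.11) and F2 (0.36 ± 0.09). Fgfr1, the main partner of Klotho, did not pass in any of the 3 (0.08 ± 0.17 in M1, 0.15 ± 0.14 in F2 and 0.38 ± 0.18 in F1). Without the array lacking Xist 1 of 13 fell in F1, Galnt3. Fgf23, Pth and Phex were not detected on any array. The median was -0.06 in M1, 0.04 in F2 and 0.06 in F1, beside 0.04, -0.01 and 0.01 for all genes.

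Calcium transport genes of the distal nephron, 11 in all with 9 or 10 tested, were higher where they passed. In M1 6 of 10 rose, in F2 3 of 9 and in F1 4 of 10, and none fell. Of all genes 22.0% rose in M1 and 10.4% in F1, and 8.48% passed in either direction in F2. Slc8a1, a sodium-calcium exchanger, rose in all 3 (0.82 ± 0.09 in M1, 0.46 ± 0.12 in F2 and 0.58 ± 0.15 in F1). Cldn16, a tight junction protein of the TAL for divalent cations, rose in M1 (0.86 ± 0.11) and F1 (0.74 ± 0.14), and its partner Cldn19 in all 3 (0.65 ± 0.11 in M1, 0.45 ± 0.12 in F2 and 0.41 ± 0.11 in F1). The apical channel Trpv5 rose in F2 (0.50 ± 0.10) and F1 (0.50 ± 0.14), and S100g (calbindin-D9k), a target of active vitamin D, rose in M1 (0.80 ± 0.14, means of 6.93 in TgUmodC147W and 6.14 in TgUmodwt mice, near the detection limit). S100g had -0.39 ± 0.20 in F2 and -0.37 ± 0.17 in F1, neither past the test, and its interaction with sex passed in limma (1.16 ± 0.24, adjusted p = 0.00603). Without the array lacking Xist 1 of 9 rose in F1, Cldn16. The Calb1 probe was not detected on any array. The median difference was 0.41 in M1, 0.11 in F2 and 0.10 in F1, beside 0.04, -0.01 and 0.01 for all genes. Trpm6 and Calb1 also stand on the distal convoluted tubule list, of which 4 of 5 tested rose in M1, 0 changed in F2 and 1 fell in F1. Of all genes 22.0% rose in M1, 8.48% passed in F2 and 7.63% fell in F1.

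Markers of the TAL, the segment that expresses Cldn16, were also higher where they passed. Of 6 tested, 4 rose in M1, 1 in F2 and 1 in F1 (0 without the array lacking Xist), and none fell. Of all genes 22.0% rose in M1 and 10.4% in F1, and 8.48% passed in either direction in F2. Slc12a1, the sodium-potassium-chloride cotransporter of this segment, rose in M1 (0.53 ± 0.09), as did Bsnd (0.60 ± 0.09), and Ptger3, a receptor for prostaglandin E2, rose in M1 (0.56 ± 0.14) and F2 (0.47 ± 0.10). Bsnd also rose in F1 (0.40 ± 0.12). The median difference was 0.51 in M1, 0.11 in F2 and 0.18 in F1, beside 0.04, -0.01 and 0.01 for all genes. 1 of the 6 is Umod, which both lines also carry as a transgene. It averaged 15.87 in TgUmodC147W M1 and 15.75 in TgUmodwt M1, near the highest level of 16.02, and weighs heavily in the sum. Umod did not pass in any genotype comparison (0.12 ± 0.07 in M1, 0.12 ± 0.09 in F2 and 0.09 ± 0.07 in F1). The summed level (log2) of the 6, none of them undetected, was 16.90 to 17.04 in TgUmodC147W M1 against 16.66 to 16.77 in TgUmodwt M1. It was 16.97 to 17.07 in TgUmodC147W F2 against 16.85 to 16.98 in TgUmodwt F2, and 16.90 to 17.05 in TgUmodC147W F1 against 16.83 to 16.91 in TgUmodwt F1, both with overlap. The part of these markers in the higher calcium transport genes was not tested.

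Genes whose levels followed the members most closely were found by Pearson r over the 24 arrays, which share their groups. For Pth1r these were Fbp1 (0.90), Irf5 (0.83) and C1qtnf12 (0.83). Fbp1, an enzyme of gluconeogenesis, is one of the 16 proximal tubule markers, and its r was 0.83 after group means were taken off. Irf5 and C1qtnf12 then had 0.70 each. For Slc34a3 they were Ethe1 (0.89), Reep6 (0.89) and the anion exchanger Slc26a6 (0.86), and for Vdr Mpp6 (0.88), Tcaim (0.88) and Ephx2 (0.87). With group means taken off they were lower, 0.66, 0.65 and 0.57 for Slc34a3 and 0.59, 0.55 and 0.52 for Vdr. For Cyp24a1 they were Slc18b1 (0.76), B3gntl1 (0.72) and Srp72 (0.68), with 0.68, 0.58 and 0.60 after group means were taken off. Kl had Glg1 (0.70), Sesn1 (0.67) and 2410022M11Rik (0.66), with 0.69, 0.93 and 0.68 after group means were taken off. Slc34a1, with its narrow range, had Gstz1 (0.77), 1810044D09Rik (0.74) and Nadsyn1 (0.73), with 0.66, 0.59 and 0.66 after group means were taken off. Among the members themselves Vdr had 0.70 with Slc34a3 and 0.68 with Pth1r, and Slc34a3 had 0.60 with Pth1r. After group means were taken off these were 0.40, 0.46 and 0.64. The values over the 24 arrays include the group differences that chose the genes.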

How the data were processed

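RNA of whole kidneys was labelled as cRNA, hybridised and read in GenomeStudio by the authors. The deposited non-normalized table holds probe intensity on a linear scale, and beside it the authors deposited a detection p-value against negative controls. The deposited value table holds intensity after cubic spline normalization. A probe was named only where the IDs of both deposited tables, matched by rank over the 24 arrays, gave the same gene (34043 of 45281 probes).

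The neqc function of limma 3.58.1 (R 4.3.3) used those p-values to correct the background, added an offset of 16, quantile normalized all 24 arrays and took log2. Comparisons of genotype, age or sex were fitted in limma on 8 arrays and interactions on 16. Probes entered a fit if detected (p under 0.01) on 1 or more of its arrays, and p-values were adjusted over all of them by Benjamini-Hochberg, with a threshold of 0.05. The fit was tested on simulated data. In the genotype comparisons it recovered 88.0% to 92.0% of probes changed 2-fold and 46.0% to 70.0% of those changed 1.5-fold. Normal noise was drawn on the normalized log2 scale, with 50 probes changed per fold size among 18302 to 19026. Background correction, normalization and changes under 1.5-fold were not simulated. Far fewer probes were changed than passed in M1, so recovery in the real data may differ. Medians of array intensity were 114.6 to 176.6, and the number of arrays limits the precision.

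The members and the gene lists were chosen with earlier results of these data known. Named genes were all members, up to 3 genes per list and comparison past the test with the widest change, Fgfr1, Lrp2 and Calb1, and the 3 genes most correlated with each member detected on all arrays. Replicate numbers were not used to pair the mice, as nothing in the labels ties them between the lines. Deviations of same-numbered arrays from their group means correlated between -0.135 and 0.274. Differently numbered arrays were not compared, so these values cannot exclude a pairing. The authors' text names BeadChips of several arrays, but which arrays shared one is not given in the sources used here. 1 marker of the thick ascending limb is not reported here.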

Additional observations from a re-analysis of the deposited data

Results flagged for a closer look

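The genotype difference of Cyp27b1 in F2 minus that in F1 was -1.93 on the log2 scale and lay past the threshold of the interaction fit. Both differences were among the values that chose the gene, so this is a description. All TgUmodC147W F2, all TgUmodwt F1 and 3 of 4 TgUmodwt F2 arrays were under detection, and the call was lost when any of 8 of the 16 arrays was left out. Over 54 sets of 4 arrays (9 genes in 6 groups), 3 had an array far from the other 3 of its group by Dixon's ratio, where chance gives about 1 in 20. These were the lowest Cyp24a1 level in TgUmodC147W F1 (8.94, next 10.49), the highest Kl level in TgUmodC147W M1 (13.73, next 13.49) and the highest Kl level in TgUmodC147W F2 (13.48, next 13.38). The first is the array lacking Xist.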

How the results depend on the processing

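Alternatives changed background correction, offset, normalization, the filter on dim probes, the model, the probe rule or left out 1 array. The share of all genes past the threshold moved with them too. Leaving aside the mean of detected probes, it was 19.9% to 39.9% in M1, 3.85% to 11.4% in F2 and 8.37% to 24.5% in F1. In M1 the number of members past the threshold (5) was 3 to 6 with 1 array left out, with 3 without TgUmodwt M1 replicate 4. In F1 (3) it was 1 to 4, with 1 without TgUmodwt F1 replicate 1 (12.2% of all genes) or 4 (13.5%). It was also 1 with the replicate number as a block (13.6%). In F2 (0) it was 0 to 1. It was 1, Cyp24a1 or Slc34a3, with the authors' cubic spline values, detection in at least 4 arrays, no background correction, an offset of 50, one fit over 24 arrays, a common median or the mean of detected probes.

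Between ages in TgUmodwt females (0) it was 0 without any single array. It was 1, Slc34a3, with the cubic spline values, no background correction, an offset of 50, a trended and robust prior or the mean of detected probes. In TgUmodC147W females (1) it was 1 without any single array and 2 in one fit over 24 arrays. The interaction with age (1) was 0 to 1 with 1 array left out, and 0 with no filter on dim probes or in one fit over 24 arrays, where Cyp27b1 no longer passed. The interaction with sex (0) was 0 to 2 with 1 array left out, 2 without TgUmodwt F1 replicate 3. Between wild-type sexes (1) it was 0 to 2 with 1 array left out. It was 0 with detection in at least 4 arrays, no filter on dim probes or one fit over 24 arrays, 2 with an offset of 50 or a common median, and 3 with the cubic spline values, no background correction, the prior or the mean of detected probes. Of all genes 1.3% to 7.91% passed between TgUmodwt ages over these settings, and 6.5% to 20.6% between TgUmodC147W ages. The shares were 0.314% to 2.16% for the interaction with age and 3.51% to 8.42% for that with sex. Between wild-type sexes they were 12.5% to 30.0%. The cause of the shifts in the counts was not tested.

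The replicate block changed no other count of members. Over all genes a common median gave 772 calls between TgUmodwt ages, against 337, and one fit over 24 arrays gave 522. That fit gave 2063 between TgUmodC147W ages, against 1314, and the block 875. For the interaction with age it gave 219, against 132, and no filter gave 59. Of 1322 single-gene values under these alternatives 1239 kept their direction and side of the threshold or moved by less than the spread, 34 lost and 38 gained a call and 0 called values changed sign. A BeadChip block was not run, as the slides are not given in the sources used here. Signals near background limit Cyp27b1, Slc20a1 and Slc20a2.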
